A study of Mus musculus with 6 samples.

Results

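Type 17 gamma-delta T cells were picked out of 4 single-cell RNA libraries of the mouse genioglossus, the tongue muscle that holds the airway open. A barcode was kept as a gated cell when it had at least 300 genes, at least 1 UMI (a counted mRNA molecule) of Cd3e, Cd3d or Cd3g together, at least 2 UMIs summed over Il17a, Il23r, Trdc, Trgc1 and Blk, 0 UMIs of Gzma, Prf1 and Cd79a, and at most 1 UMI of Pecam1 and Cdh5. This left 63 gated cells of 56309 barcodes. The 5 genes of the sum chose the cells, so their levels are a description and support nothing by themselves.

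Libraries came from male mice 4 weeks after modeling of obstructive sleep apnea, with the treatment label OSA-4W, and from male controls, all in batch 1. How apnea was induced, and whether a library held 1 animal or several, is not stated, so p-values measure only the spread between these libraries, which may be technical. The labels call the samples skeletal muscle cells of primary tissue, yet 5721, 4390 and 2939 barcodes in OSA and 4883 in the control were endothelial by at least 5 UMIs of Pecam1 and Cdh5 and 0 of Cd3. Matrices of OSA replicates 1, 2 and 3 and of control replicate 2 were read, while those of the other two control replicates were not used here.

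Gamma-delta T cells carry a receptor built from gamma and delta chains in place of the alpha and beta chains of most T cells. A subset leaves the thymus already committed to making interleukin 17, settles in barrier and connective tissues, and answers interleukin 23 and interleukin 1 without a prior encounter with antigen. Their interleukin 17 calls in neutrophils. The receptors of one innate subset of this kind pair the Trgv6 and Trdv4 segments.

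The promoters of Il17a and Il23r are shown because they are the cytokine axis of the rule, and they are the 2 of its 5 summed genes with an entry in the table used. They were searched on both strands for AGGTCA, the core of the DNA site that many nuclear receptors read. Each window runs from 250 bases before to 50 bases after the gene's start, on the gene's own strand, and comes from the RefSeq table for GRCm38.p6, while the counts were made on GRCm39. Capitals mark AGGTCA or its reverse complement TGACCT. Il17a lies at chr1:20730655-20730954 on the plus strand, with 1 match that starts 120 bases before the gene's start. Il23r lies at chr6:67491806-67492105 on the minus strand, with matches 229 and 66 bases before the start.
Il17a: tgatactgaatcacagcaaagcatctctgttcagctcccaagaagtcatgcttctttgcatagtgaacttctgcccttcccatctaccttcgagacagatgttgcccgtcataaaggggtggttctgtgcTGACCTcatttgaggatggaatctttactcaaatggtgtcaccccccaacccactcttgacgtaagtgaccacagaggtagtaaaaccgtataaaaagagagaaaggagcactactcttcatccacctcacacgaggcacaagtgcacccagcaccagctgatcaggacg
Il23r: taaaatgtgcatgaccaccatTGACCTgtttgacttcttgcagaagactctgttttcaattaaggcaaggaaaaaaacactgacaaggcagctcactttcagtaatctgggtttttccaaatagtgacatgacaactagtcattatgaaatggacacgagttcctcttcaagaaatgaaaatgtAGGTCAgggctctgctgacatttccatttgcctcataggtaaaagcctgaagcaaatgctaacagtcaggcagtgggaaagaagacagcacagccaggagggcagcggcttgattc
Of all 32851 windows of this length, 16.26% hold the letters on either strand, so a match alone is common. The window of Scart1, a receptor gene outside the rule described further on, holds 0 matches. In a list of the type 17 programme 4 of 24 genes with a window hold them, namely Il17f, Ccr6, Capg and S100a4. The match is a description of letters and not of binding.

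The gated cells were few and sat mainly in the OSA libraries. There were 14, 12 and 36 gated cells in OSA replicates 1, 2 and 3, out of 15714, 12587 and 14310 barcodes, against 1 of 13698 in control replicate 2. As shares of all barcodes these were 0.0891%, 0.0953% and 0.252% in OSA and 0.0073% in the control, with exact 95% binomial intervals of 0.0487 to 0.149%, 0.0493 to 0.166% and 0.176 to 0.348% in OSA and 0.000185 to 0.0407% in the control. These intervals cover counting error only. The 3 OSA libraries lay above the control library and, under this rule, their intervals did not reach its interval. In some alternatives, given in the last section, they did.

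The mean share was 0.145 ± 0.0921% in OSA (SD, n = 3) and 0.0073% in the control, a difference of 0.138 percentage points (p = 0.5, two-sided exact permutation test over libraries). The smallest p that this exact test allows with 3 libraries against 1 is 0.25. OSA replicate 3 held most of the gated cells, and without it the difference was 0.0849 points. Of barcodes with a Cd3 UMI that met the limits on genes, Pecam1, Cdh5 and Cd79a, those with Gzma or Prf1 included, 14 of 70, 12 of 80 and 36 of 201 were gated in OSA and 1 of 66 in the control, which is 1.52% (exact 95% interval 0.0384 to 8.16%). The difference was 16.1 points, with OSA at 17.6 ± 2.51% (SD, n = 3, p = 0.25, two-sided exact permutation test, the smallest it allows). This share was of like size in the 3 OSA libraries, whereas the share of all barcodes was not.

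The limit on Pecam1 and Cdh5, which keeps endothelial cells out, alone removed 12, 9 and 17 barcodes with a sum of 2 or more in OSA and 3 in the control. Of these, 11, 8 and 15 in OSA and 3 in the control had UMIs of Scart1, which encodes a scavenger receptor of type 17 gamma-delta cells. Cdh5 had UMIs in 6, 0 and 6 of the removed barcodes in OSA and in 1 in the control. With that limit dropped there were 26, 21 and 53 gated cells in OSA and 4 in the control. Barcodes that met the other limits with a sum of exactly 1, just outside the threshold, numbered 3, 1 and 10 in OSA and 1 in the control, while 11 of the 63 gated cells were just inside it at a sum of 2. Scrublet, a doublet caller, marked 1 gated cell as a likely doublet, in OSA replicate 1. Of the barcodes that the limit on Pecam1 and Cdh5 alone removed, it marked 2, 0 and 3 in OSA and 1 in the control.

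**Figure D1:**
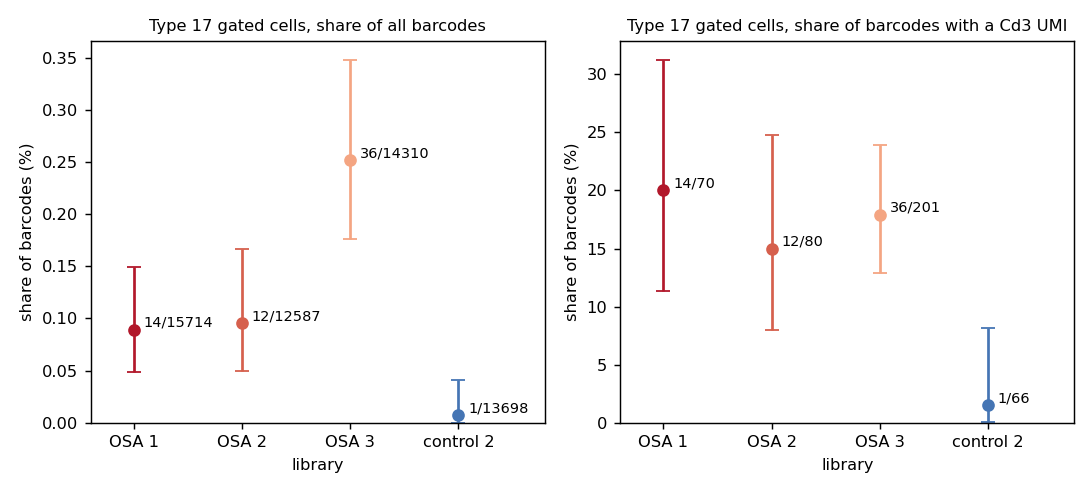
Type 17 gated cells as a share of all barcodes (left, %) and of barcodes with a Cd3 UMI (right, %) in each library, with exact 95% binomial intervals and the counts beside each point. The 3 OSA libraries lie between 0.0891 and 0.252% of all barcodes and average 17.6% of Cd3 barcodes, and the control library lies at 0.0073% and 1.52%.

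Most gated cells held both receptor and cytokine-axis transcripts of the 5 genes that chose them. Of the 63 gated cells, 58 had UMIs of Trdc or Trgc1, the delta and gamma constant segments, and 45 had UMIs of Il17a, the cytokine itself, or of Il23r, the receptor subunit for interleukin 23. Both kinds of gene were seen in 41 cells, and 1 cell passed on Blk alone, a kinase of the receptor pathway that gamma-delta T cells share with B cells. The sum over the 5 genes ran from 2 to 33 with a median of 7, and 5, 20, 14, 16 and 8 cells had UMIs of 1, 2, 3, 4 and 5 of the genes. Median depth was 3930.5, 5775 and 3584 UMIs per gated cell in OSA, and the control cell had 8614.

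Il17a was seen in 5 of 14, 7 of 12 and 9 of 36 gated cells in OSA, with 10, 18 and 44 UMIs, and in 0 of 1 in the control. Il23r was seen in 12, 6 and 18 OSA cells and in 0 control cells. Trdc was seen in 11, 11 and 32 OSA cells and in the control cell, which also held Blk and Scart1 and had 0 UMIs of Il17a and Il23r. That 1 control cell therefore entered on receptor and kinase transcripts, not on the cytokine axis. Over all barcodes, Il17a was seen in 10, 13 and 19 in OSA and 1 in the control, and Il23r in 23, 18 and 44 in OSA and 2 in the control.

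These genes were seen in few endothelial barcodes, and free RNA itself was not measured. In 13050 endothelial barcodes of the OSA libraries, chosen by at least 5 UMIs of Pecam1 and Cdh5 and 0 of Cd3, Il17a was seen in 1, Il23r in 5, Trdc in 8, Trgc1 in 6 and Scart1 in 24. Their median depth was 4625, 5360.5 and 5323 UMIs. Il17f, a sister cytokine, was seen in 2 of 62 OSA gated cells and Il22 in 1, where it had 5 UMIs.

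Trdv4, a delta variable segment, was seen in 8, 8 and 4 OSA gated cells with 24, 31 and 5 UMIs, and Trgv6, a gamma variable segment, in 3, 4 and 3 with 3, 6 and 4 UMIs. Trgv6 or Trdv4 was seen in 24 of 63 gated cells and both in 6. Trgv2 was seen in 9 of 62 OSA gated cells and in the control cell, and Trdv5 in 1, while Trgv1, Trgv3, Trgv4, Trgv5, Trgv7, Trdv1, Trdv2-1, Trdv2-2 and Trdv3 had 0 UMIs in all 63. Trdv4 was therefore seen in a smaller share of the gated cells of OSA replicate 3 than of OSA replicates 1 and 2, and that library also had the shallowest gated cells. After thinning each cell to 1500 UMIs, Trdv4 was seen in 4 of 13, 5 of 12 and 1 of 31 OSA cells, with 1, 0 and 5 cells too shallow to thin, and the difference was not tested. None of the 16 variable and constant segment genes outside the rule had enough counts for a gene test. The gamma constant segments Trgc1 and Trgc2 are near-identical copies, as are Trbc1 and Trbc2, so counting may have split reads between them.

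Transcripts of the alpha-beta receptor were common in the gated cells. A UMI of Trac, Trbc1 or Trbc2 was seen in 13 of 14, 11 of 12 and 33 of 36 gated cells in OSA and in the control cell, so most of them held constant segments of both receptor types. These were mainly the beta segments. Trac, the alpha constant segment, was seen in 4, 5 and 3 OSA gated cells, with 11, 8 and 6 UMIs, and in 0 of 1 in the control. Trbc2, a beta constant segment, was seen in 13, 8 and 28 OSA gated cells and in the control cell. Of the 12 cells with UMIs of Trac, Cd4 or the Cd8 genes, 10 also had Trdc or Trgc1 and 2 did not. Cd4 had 1 UMI in 1 gated cell, and Cd8a and Cd8b1 had 0 in all 63.

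**Figure D2:**
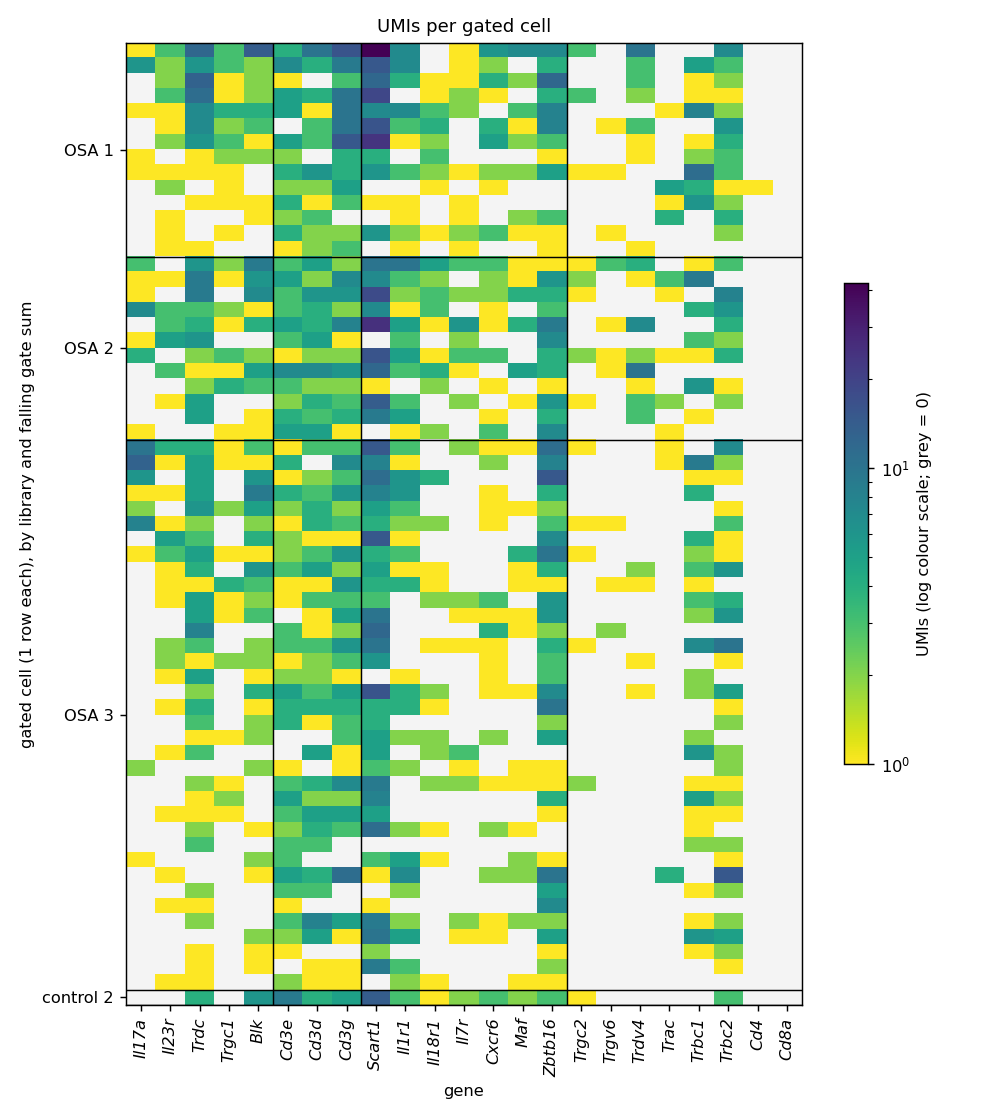
UMIs of 23 genes (columns) in each of the 63 gated cells (rows, ordered by library and by falling sum over Il17a, Il23r, Trdc, Trgc1 and Blk), on a log colour scale with 0 in grey. The first 5 columns belong to the rule, as do the next 3, and Zbtb16 and Scart1 are the fullest columns outside it (57 and 53 of the 62 OSA cells), while Cd4 and Cd8a are nearly empty.

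Gated cells were then set against 2 other lymphocyte sets of the same OSA libraries. Other T cells met the same limits with a 5-gene sum of 0, and numbered 47, 63 and 149 in OSA and 56 in the control. Cytotoxic lymphocytes, natural killer and killer T cells, had at least 2 UMIs of Gzma and Prf1, a 5-gene sum of at most 1 and no Cd3 requirement, and numbered 11, 9 and 14 in OSA and 39 in the control. UMIs were summed per library and set, and genes were tested with edgeR's quasi-likelihood test with the library as a block and Benjamini-Hochberg adjustment over all genes tested, at an adjusted p of 0.05. The control library has 1 gated cell and is not in these fits.

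The set of other T cells carried many transcripts of other cell classes. Summed UMIs of 8 macrophage genes were 1.25, 1.10 and 16.4 per 10000 UMIs in gated cells of OSA replicates 1, 2 and 3 and 53.3, 13.7 and 45.5 in other T cells. In OSA replicate 3, 2 gated cells held 137 and 31 of these UMIs and every other gated cell held at most 4. Fibroblast genes were at 3.92, 5.22 and 7.30 per 10000 in gated cells and at 63.6, 82.8 and 80.7 in other T cells, and neutrophil genes reached 444 per 10000 in other T cells of OSA replicate 2. A UMI of an alpha-beta constant segment was seen in 18 of 47, 16 of 63 and 58 of 149 other T cells in OSA, a smaller share than in the gated cells of each library. The Cd3 genes of the rule were themselves 1.60 to 2.46 higher on the log2 scale in gated cells. Fewer T cells in a set and less T cell RNA per barcode cannot be told apart in such sums. The part of these transcripts in the calls was not tested, and each main result is also given for a stricter pair of sets, added after the data were seen. The stricter sets keep barcodes with at least 2 Cd3 UMIs and at most 1% of UMIs from 10 lists of other classes, which leaves 14, 12 and 33 gated cells against 17, 12 and 50 other T cells. There, Cd3d, Cd3e and Cd3g differed by 0.09, 0.58 and 0.64 (log2) and did not pass the test. Both stricter sets were chosen on Cd3 UMIs, so these values do not measure whether their T cell content is alike.

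**Figure D3:**
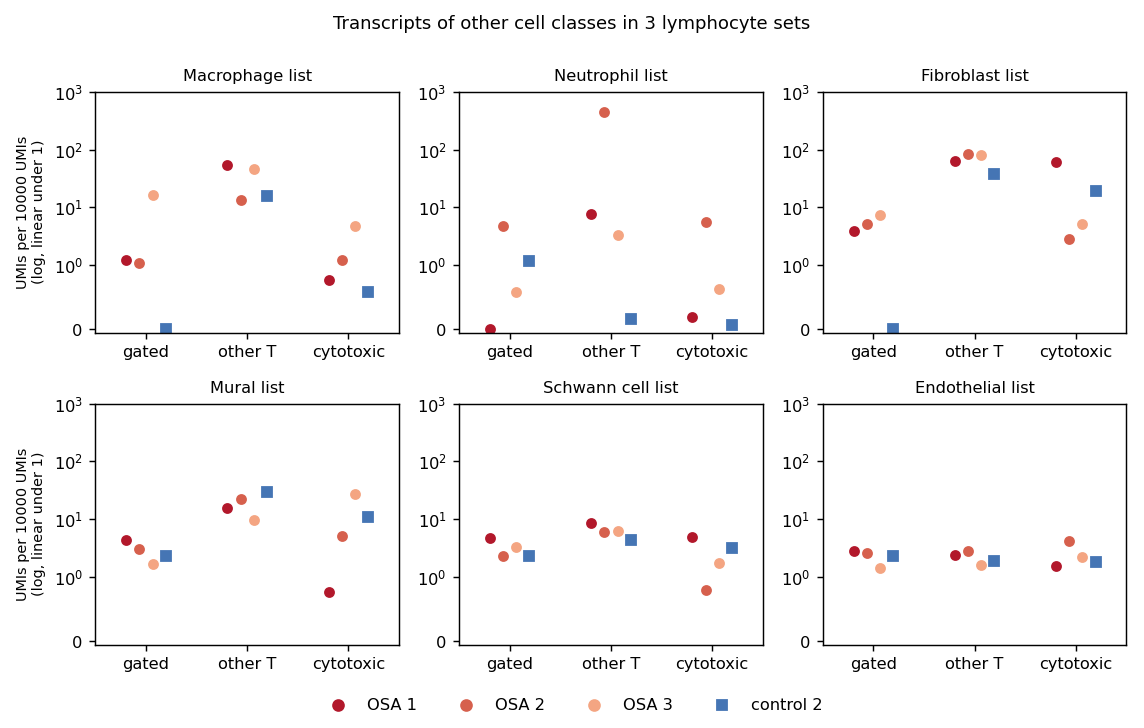
Summed UMIs of marker lists of 6 other cell classes per 10000 UMIs (y axis, log above 1) in gated cells, other T cells and cytotoxic lymphocytes of each library. Macrophage and fibroblast transcripts are higher in other T cells (13.7 to 53.3 and 63.6 to 82.8 in OSA) than in gated cells (1.10 to 16.4 and 3.92 to 7.30).

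Against other T cells, 405 genes were higher and 666 lower in gated cells among 4045 tested, 26.5% in all, 10.0% higher and 16.5% lower. In the stricter sets, 74 were higher and 39 lower among 1292 tested, 8.75% in all, 5.73% higher and 3.02% lower. Of the genes called higher, 62 were called in both, which is 15.3% of the first list and 83.8% of the stricter one. Of those called lower, 15 were called in both, 2.25% and 38.5% of the lists. Of the genes called with all other T cells, 258 of the higher and 104 of the lower ones had enough counts to be tested in the stricter sets.

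Scart1, a scavenger receptor family gene known as a surface marker of type 17 gamma-delta cells in mice, stood apart. Its level was 2380, 1635 and 1643 CPM (counts scaled to 1000000 UMIs of the set) in gated cells of the 3 OSA libraries and 1625 CPM in the control cell, against 3.21, 0 and 6.98 CPM in other T cells of OSA and 0 in those of the control. No library of one set came near a library of the other. The log2 fold change was 8.25 ± 0.43 (SE, adjusted p = 1.35e-17, edgeR), and in the stricter sets, where other T cells had 2 counts, the ratio was 340 (93.6 to 2815, counting interval). Scart1 was seen in 11 of 14, 10 of 12 and 32 of 36 gated cells in OSA, in the control cell, and in 5 of the 259 other T cells of OSA. After thinning to 1500 UMIs it was still seen in 11 of 13, 9 of 12 and 25 of 31 gated cells.

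Clnk, an adaptor protein of immune receptor signalling, had 532, 508 and 197 CPM in gated cells and 0 in other T cells of every library, at least 236-fold higher where 3 counts over the 3 OSA libraries stand as the floor. Cytotoxic lymphocytes also held Clnk. In the stricter sets they had 0, 201.5 and 92.1 CPM in OSA and 92.4 CPM in the control, against 532, 508 and 210 CPM in gated cells of OSA. Cryba4, a crystallin gene best known from the lens, had 78.3, 123.7 and 314.1 CPM in gated cells and 2 counts in other T cells, a ratio of 206 (54.4 to 1740, counting interval). Only the full comparison could test it. St3gal3 and St6galnac3, sialyltransferases that cap surface sugars, averaged 757 ± 87.2 and 1131 ± 120 CPM in gated cells and 34.2 ± 1.88 and 65.0 ± 9.12 CPM in other T cells (SD, n = 3 each). Both passed in each version, at 4.17 ± 0.32 and 3.84 ± 0.29 (log2, SE) and, in the stricter sets, 4.97 and 1.92.

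The other genes among the 15 highest were Actn2, an actin cross-linker of the muscle Z disc; Adam12, a surface metalloprotease; Prelid2; Il18r1 and Il1r1, the receptors of interleukins 18 and 1; Acsbg1, an acyl-CoA synthetase; Cxcr6, a chemokine receptor of tissue-resident lymphocytes; Nebl, a relative of nebulin; Ikzf3, the lymphocyte factor Aiolos; and Ptprcap, a partner of CD45. Their log2 fold changes with all other T cells ran from 3.26 to 4.74. Of all 15, 13 were tested in the stricter sets and all 13 were called. Cxcr6 was 1.66 higher there (log2), below that range. In the stricter sets Ikzf3, Nebl and Acsbg1 averaged 1043, 195 and 191.5 CPM in gated cells, against 326, 54.2 and 40.1 CPM in other T cells. Il1r1 averaged 570 CPM against 16.5 CPM there. Of the 15, Actn2 is known from muscle. Its level was 454, 522 and 782 CPM in gated cells and between 2.68 and 32.1 CPM in all other T cells. In the stricter sets Actn2 had 454, 522 and 857 CPM in gated cells and 107, 16.6 and 133 CPM in other T cells. The 6 genes of the myofibre list had 1, 4 and 4 UMIs in all over the gated cells of the OSA libraries.

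In the stricter sets, Igf1r, the receptor for insulin-like growth factor 1, had a larger fold change than with all other T cells. It had 595, 673 and 744 CPM in gated cells and 35.6, 16.6 and 35.5 CPM in other T cells (log2 fold change 4.30 ± 0.42, adjusted p = 2.05e-09, edgeR), against 1.89 there. Pik3ap1, an adaptor of PI3-kinase signalling, had 3 counts in those other T cells, for a ratio of 23.2 (7.495 to 117, counting interval). Tmem176a, a membrane protein, was higher by 3.52 ± 0.39 (log2). Abi3bp, a matrix-binding protein also made by fibroblasts, was 3.41 ± 0.59 higher in the stricter sets and -0.17 with all other T cells, where it did not pass.

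The type 17 programme list holds 31 genes outside the rule. Of these, 22 were tested against other T cells, and 19 were higher and 1 lower, beside 10.0% and 16.5% of all genes, with a median log2 fold change of 2.29 beside -0.04 over all genes tested. In the stricter sets 17 were tested, and 13 were higher and 0 lower, beside 5.73% and 3.02% of all genes. The median of the 17 was 2.004 beside 0.05. Genes at low counts left the test, among them Il17f, Il22, Ccr6, Ccr2 and Aqp3, so these counts describe the genes abundant enough to be read. The list was chosen with earlier results of these data known, and a gene could enter the test on its counts in gated cells alone. The counts are thus a description and support nothing by themselves.

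By role, the cytokine receptors Il1r1, Il18r1, Il7r and Il17re were higher by 3.78 ± 0.32, 3.95 ± 0.48, 2.65 ± 0.43 and 3.95 ± 0.69 (log2, SE). Il1r1 had 579, 563 and 519 CPM in gated cells, 348 CPM in the control cell, and 28.9, 29.5 and 38.8 CPM in other T cells of OSA. Il7r and Il17re could not be tested in the stricter sets. Among transcription factors, Maf, Sox13 and Zbtb16 were higher by 2.14 ± 0.38, 3.03 ± 0.52 and 0.99 ± 0.27, and Rora by 0.78 ± 0.26. Maf and Sox13 are fate factors of these cells, Zbtb16 encodes PLZF of innate-like lymphocytes, and Rora encodes an orphan nuclear receptor. Zbtb16 is also broadly present in this tissue, with a UMI in 12710 of the 13050 endothelial barcodes. Zbtb16 and Maf were called again in the stricter sets at 2.70 ± 0.35 and 2.26 ± 0.55, whereas Rora was 0.21 ± 0.30 and did not pass, and Sox13 was not tested.

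Of the remaining genes of the list, Ramp1, the receptor partner through which cells sense the neuropeptide CGRP, had 579, 357 and 562 CPM in gated cells, against 135, 93.8 and 49.6 CPM in other T cells. Its log2 fold change was 2.34 ± 0.32, and 3.04 ± 0.39 in the stricter sets. The calcium-binding S100a4 and the actin-capping Capg were higher by 1.85 ± 0.27 and 1.06 ± 0.28, and by 1.57 and 1.71 in the stricter sets. Lgals3, a galectin abundant in macrophages, was at -2.21 ± 0.35 with all other T cells and 0.24 ± 0.61 in the stricter sets, where it did not pass. Serpinb1a, a protease inhibitor, and Ltb4r1, the leukotriene B4 receptor, were higher by 2.69 ± 0.45 and 2.23 ± 0.44, and Ltb4r1 did not pass in the stricter sets (1.23 ± 0.50).

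**Figure D4:**
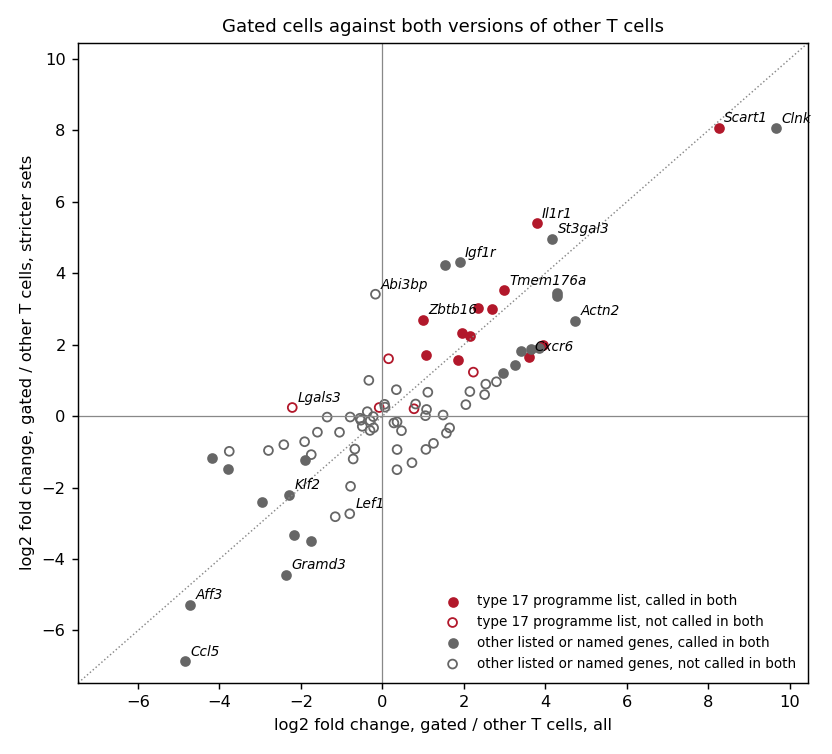
Log2 fold change of gated cells over other T cells for listed or named genes tested with both versions of the reference, all other T cells (x axis) and the stricter sets (y axis). Genes of the type 17 programme list (red) lie mostly in the upper right, with Scart1 at 8.25 and 8.07, and the dotted line marks equal values.

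Outside the cytokines of the rule, few secreted factors were read. Ltb, a lymphotoxin subunit, was higher in gated cells, with 485, 632 and 555 CPM against 73.8, 45.6 and 62.0 CPM in other T cells (2.97 ± 0.31, and 1.21 ± 0.32 in the stricter sets, both called). Of 16 effector cytokine genes 5 were tested, and 1 was higher and 1 lower, beside 26.5% called over all genes. Csf2 had 1 UMI in all 62 OSA gated cells, Ifng 3, Areg 13 in 4 cells, and Tnf 19 in 10 cells. Icos, a costimulatory receptor, and Pdcd1, the inhibitory receptor PD-1, were higher by 3.27 ± 0.50 and 2.96 ± 0.48, and neither was tested in the stricter sets.

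Several genes of circulating T cells were lower in gated cells of the stricter sets. There, Lef1, a factor of naive T cells, had 62.6, 68.7 and 56.6 CPM in gated cells, against 534, 430 and 275 CPM in other T cells (-2.73 ± 0.39, adjusted p = 4.84e-06, edgeR). With all other T cells it was -0.80 ± 0.45 and did not pass. Klf2, a factor of cells that recirculate through blood, fell in both versions, by 2.29 and 2.20 on the log2 scale. Of 10 genes of naive and circulating cells, 6 were tested in the stricter sets. Of these 4 were lower, Lef1, Klf2, Satb1 and Igfbp4, beside 3.02% of all genes. The median of the 6 was -1.49 beside 0.05 over all genes. With all other T cells 7 were tested, of which Tcf7 was higher (1.57 ± 0.41) and Klf2 and Igfbp4 were lower. Over all genes 10.0% were higher and 16.5% lower there. Tcf7 was -0.47 ± 0.40 and did not pass in the stricter sets. Ccr7, which takes T cells into lymph nodes, had 0 UMIs in all 63 gated cells.

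The lowest gene in the stricter sets was Ccl5, a chemokine of cytotoxic and memory T cells. It had 0, 0 and 48.5 CPM in gated cells and 3657, 3659 and 1463 CPM in other T cells (-6.86 ± 0.64, adjusted p = 2.85e-06, edgeR). Its 6 UMIs in the OSA gated cells came from 1 cell. Aff3, a nuclear factor of lymphocytes, had 1 count in gated cells, so that it was 45.0 times higher in other T cells (7.79 to 1805, counting interval). Cd6, a T cell surface receptor, had 3 counts in gated cells and was 15.47 times higher in other T cells (5.07 to 76.9). Gramd3, Prkch, a protein kinase C, Fyb, an adaptor of T cell receptor signalling, Inpp4b, a phosphatase, and Ifi27l2a, an interferon-induced gene, were also lower, with log2 fold changes between -4.44 and -2.40.

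Of 11 genes of tissue-resident lymphocytes 6 were tested. With all other T cells Rgs2, Itgb7 and Crem were higher and 0 lower, beside 10.0% and 16.5% of all genes. In the stricter sets Itgav was lower and 0 higher, beside 3.02% and 5.73% of all genes. Itgb7, an integrin chain, was 0.90 there and did not pass. Of 9 alpha-beta T cell genes 3 were tested with all other T cells. The beta constant segments Trbc1 and Trbc2 were higher in gated cells (2.51 ± 0.30 and 1.25 ± 0.29), beside 10.0% of all genes. Trac was 0.73 ± 0.51 and did not pass. None of these segments passed in the stricter sets, where Trbc1 was 0.60 ± 0.30, Trbc2 -0.76 ± 0.29 and Trac -1.30 ± 0.49. Against cytotoxic lymphocytes, Trbc2 was higher (1.17 ± 0.34) and Trbc1 was 0.76 ± 0.39 and did not pass.

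With all other T cells as the reference, the 10 lowest genes included Mmp9, Mxra8, Cacna2d1, Pdgfra, S100a9, Tnfaip2, Ccn2 and Hp. S100a9 is a neutrophil gene and Pdgfra and Mxra8 are fibroblast genes. None of the 10 could be tested in the stricter sets. Mmp9, Mxra8, Cacna2d1 and Pdgfra had 0 counts in gated cells, and Mmp9 was at least 14.0-fold lower with the same floor of 3 counts. S100a9 had 0, 343.5 and 7.30 CPM in gated cells and 298, 33140 and 177 CPM in other T cells, high in OSA replicate 2 in both. All 6 fibroblast and all 6 tested macrophage genes were lower in gated cells in this version, beside 16.5% of all genes. The part of these transcripts in the other calls was not tested.

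Hypoxia, clock and immediate early genes were read as well. Of 23 hypoxia response genes 15 were tested against all other T cells, and 2 were higher, Ero1a and Pfkp, and 2 lower, Ndrg1 and P4ha1, with a median of 0.07. A count of 4 of 15 is near the 26.5% called over all genes. The stricter sets tested 6, of which edgeR called 0 and 1, Ldha, had an unadjusted p under 0.05. Of 16 clock genes 10 were tested, and Arntl, the clock activator BMAL1, was 2.80 ± 0.41 higher while Bhlhe40 and Dbp were lower, again near the 26.5% over all genes. With the stricter sets Arntl was 0.96 ± 0.44 and did not pass. Of 18 immediate early and dissociation-induced genes 17 were tested and 11 were lower, beside 16.5% of all genes, with a median of -1.36. In the stricter sets 2 of 15 were lower, Dnajb1 and Nr4a1, beside 3.02% of all genes, with a median of -0.45.

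Against cytotoxic lymphocytes, 83 genes were higher and 75 lower in gated cells among 1060 tested, 14.9% in all, 7.83% higher and 7.08% lower. The stricter sets gave 102 and 89 among 996, 19.2% in all, 10.2% higher and 8.94% lower. Among other-class transcripts, cytotoxic lymphocytes had fibroblast genes at 59.7 per 10000 UMIs in OSA replicate 1 and mural cell genes at 27.7 in OSA replicate 3, where gated cells had 3.92 and 1.68, and their part in the calls was not tested. Without OSA replicate 2 the test called 7 genes, 3 higher and 4 lower, so this count rests on that library.

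Scart1 had 0 counts in the cytotoxic lymphocytes of all 4 libraries and was at least 99.5-fold higher in gated cells, with the floor at 3 counts over the OSA libraries. Adam12 and Ltb4r1 also had 0 counts in cytotoxic lymphocytes of OSA and were at least 15.2-fold and 10.4-fold higher. St3gal3 and Il1r1 had 1 count each there, for ratios of 121 (21.5 to 4802) and 89.7 (15.8 to 3566), and Tmem176b and Ramp1 had 2 each, for ratios of 51.8 (14.1 to 431) and 42.1 (11.4 to 351). Actn2 had 3 counts, for a ratio of 34.9 (11.7 to 171). All 8 were higher in every OSA library and were called again in the stricter sets. Of the type 17 programme list 15 genes were tested, and 12 were higher and 0 lower, beside 7.83% and 7.08% of all genes. The median of the 15 was 3.81 beside 0.01 over all genes. As above, the list was chosen with earlier results of these data known, so these counts are a description.

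Genes of killing and type 1 responses were lower in gated cells. The rule and the definition of cytotoxic lymphocytes both used Gzma and Prf1, so the sets were chosen apart on this axis. Ccl5 averaged 14.6 ± 25.3 CPM in gated cells and 14440 ± 7218 CPM in cytotoxic lymphocytes, and Nkg7, a cytotoxic granule gene, averaged 34.1 ± 33.7 CPM in gated cells and 2433 ± 518 CPM in cytotoxic lymphocytes (SD, n = 3 each). Their log2 fold changes were -9.59 ± 0.66 and -6.02 ± 0.32 (adjusted p = 0.0208 and 2.47e-09, edgeR). Klrb1c, the NK1.1 receptor, had 0 counts in gated cells and was at least 34.9-fold lower with the same floor. Irf8, a transcription factor, Il12rb2, the receptor for interleukin 12, and Xcl1, a chemokine, had 1 count each in gated cells, and cytotoxic lymphocytes were 279 (49.4 to 11090), 125 (21.7 to 4987) and 108 (18.7 to 4331) times higher. Of 15 cytotoxic and type 1 genes 6 were tested and all 6 were lower, beside 7.08% of all genes. The median of the 6 was -5.86 beside 0.01 over all genes tested. A gene could also enter the test on its counts in cytotoxic lymphocytes alone. These counts are therefore a description of the sets as chosen.

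**Figure D5:**
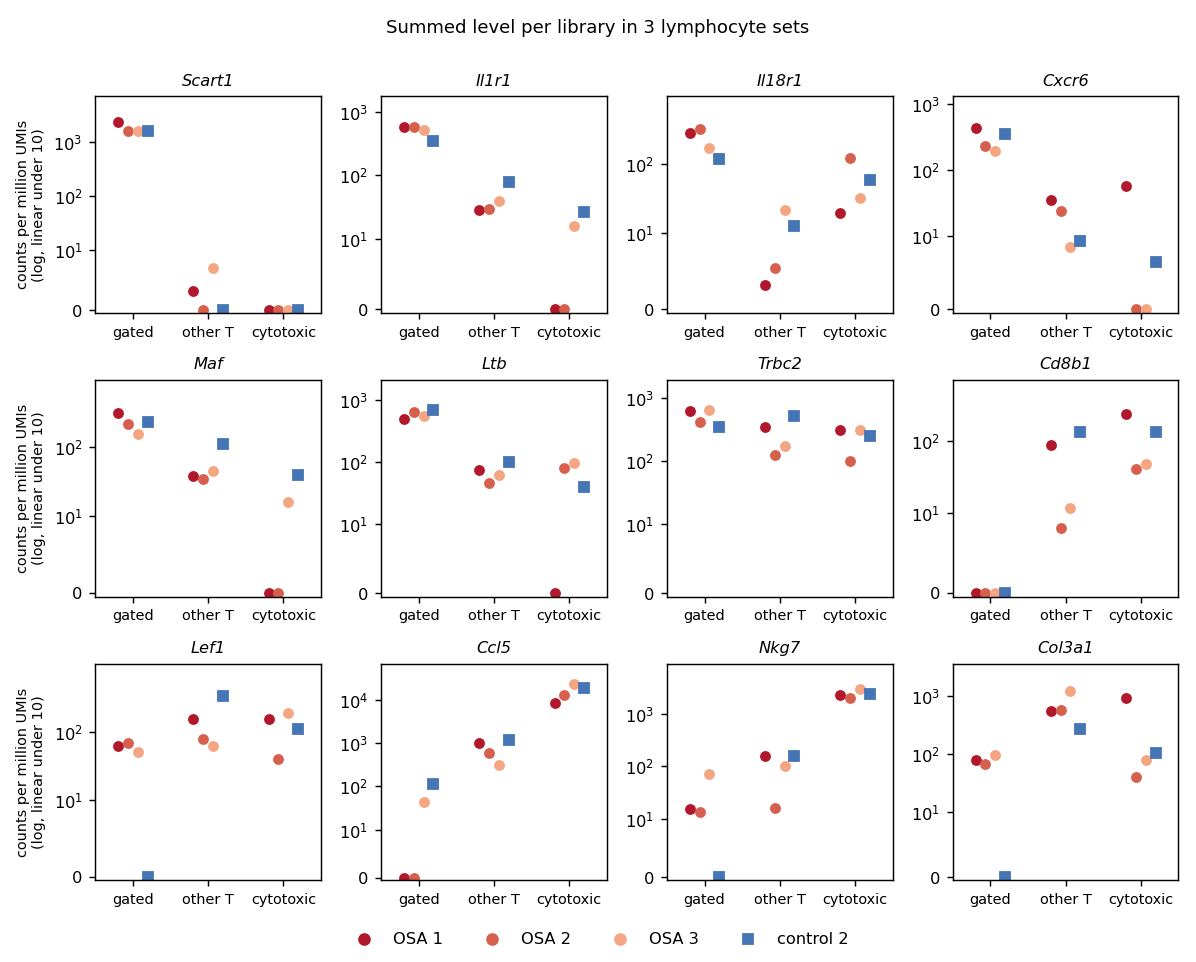
Level of 12 genes in CPM (y axis, log above 10) in gated cells, other T cells and cytotoxic lymphocytes, with a point for each library (circles OSA, square control). Scart1 lies between 1625 and 2380 CPM in gated cells and at most at 6.98 CPM elsewhere, Ccl5 and Nkg7 are highest in cytotoxic lymphocytes, and Cd8b1 is at 0 in gated cells of every library.

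OSA and control gated cells could not be tested against each other, since the control library held 1. Values of that cell stand beside those of OSA above. Its Scart1, Ltb, Capg and Tmem176b levels of 1625, 697, 697 and 697 CPM rest on 14, 6, 6 and 6 UMIs. In other T cells edgeR called 23 genes higher and 12 lower in OSA among 6986 tested, 0.501% in all, 0.329% higher and 0.172% lower. The control arm of this comparison is 1 library, whose spread is only assumed to be that of the OSA libraries. Without 1 OSA library at a time the test called between 99 and 173 genes, most without OSA replicate 2, and in the stricter sets it called 5. Of the 17 tested genes of the type 17 programme list edgeR called 0, with 6 at an unadjusted p under 0.05, and DESeq2 called 1. Neutrophil transcripts in these sets were 7.70, 444 and 3.27 per 10000 UMIs in OSA and 0.156 in the control, and macrophage transcripts 53.3, 13.7 and 45.5 in OSA and 15.7 in the control. Clec4d, Hp, Cd14 and Tyrobp, genes of myeloid cells, were among the 23, and the part of such transcripts in the calls was not tested. Tcf7, a factor of naive T cells, had 60.9, 32.1 and 34.1 CPM in OSA and 197 CPM in the control. In the stricter sets it had 214, 182 and 177 CPM in OSA and 378 CPM in the control. An alpha-beta constant segment was seen in 18 of 47, 16 of 63 and 58 of 149 of all other T cells in OSA and in 32 of 56 in the control.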

How the data were processed

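RNA of single cells was read on the 10x Genomics platform. Per the file headers and the submitters' processing notes, the authors made the matrices with Cell Ranger 9.0.1 on GRCm39 (mm39), and the deposited values are raw UMI counts per gene and barcode. Filters before deposit are not given in the sources used here.

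Barcodes with under 300 genes were removed (29, 31 and 17 in OSA replicates 1, 2 and 3 and 21 in control replicate 2). These libraries held 78935595, 74007957, 82184913 and 70217449 UMIs in that order. Library pairs shared at most 0.468% of their barcodes, and no gated barcode was shared. Doublets were called with Scrublet (scanpy 1.11.5, expected rate 0.1) and stayed in.

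Counts were summed per library and set, filtered with filterByExpr, scaled by TMM and tested with edgeR 4.0.16 in R 4.3.3. DESeq2 1.42.0 was an alternative. The test was tried on simulated counts with an assumed spread. Against other T cells it recovered 2 of 67 changes of 2-fold, 41 of 67 of 4-fold and 54 of 66 of 8-fold, with 0 false calls. Against cytotoxic lymphocytes it recovered 19 of 67, 56 of 67 and 58 of 66, with 6 false calls. Genes that did not pass can therefore still differ, above all by about 2-fold. Apart from the planted changes, the simulation gave both sets the same pooled levels and all genes the same spread. The recovered and false counts therefore do not give error rates for these data. Levels are plain CPM of a set's UMIs. Shares were compared by exact permutation over libraries, with Clopper-Pearson intervals at 95%.

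Members and lists were chosen with earlier results of these data known. Named genes were the 15 highest and 10 lowest against other T cells and the 8 highest and 6 lowest against cytotoxic lymphocytes, at an adjusted p under 0.05, mean log2 CPM of at least 6 and 1 direction in every library, with genes of the rule left out, and list members. The 10 highest and 10 lowest of the stricter sets were added later. A test of OSA against control in gated cells needed 10 cells in each library and was not run. Promoter windows came from RefSeq on GRCm38.p6. Some genes that the rule picks are not reported here.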

Additional observations from a re-analysis of the deposited data

How the results depend on the processing

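No paired analysis was possible because OSA and control share only replicate number 2 among the libraries read. This concerns OSA against control only, and nothing in the labels states that equal replicate numbers mark matched animals. The main fits of gated cells against other T cells and against cytotoxic lymphocytes did compare sets within each library, with the library as a block. The control library was in no fit of gated cells, so leaving it out gave no value, and the alternatives for OSA against control in gated cells were not run.

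Both shares kept their direction under every alternative tried. Without 1 OSA library at a time, the difference in the share of all barcodes lay between 0.0849 and 0.166 points, and that in the share of Cd3 barcodes between 14.9 and 17.4 points. With at least 2 Cd3 UMIs the difference in the share of Cd3 barcodes was 33.9 points.

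The 1071 genes called against other T cells became 574 with DESeq2, 262 with at least 10 counts in each sum, 206 after thinning to 1500 UMIs, 116 with at least 2 Cd3 UMIs and 113 in the stricter sets, and lay between 826 and 992 without 1 OSA library at a time. Fewer genes were tested in all of these but the DESeq2 fit and the fits without OSA replicates 1 and 2. The 158 called against cytotoxic lymphocytes became 89 with DESeq2, 273 without a filter on low counts, 29 with at least 10 counts in each sum and 42 after thinning, and lay between 7 and 156 without 1 OSA library. The 35 called between OSA and control in other T cells became 100 without a filter, 10 with at least 10 counts and 5 each after thinning, with at least 2 Cd3 UMIs and in the stricter sets, and lay between 99 and 173 without 1 OSA library. The cause was not tested.

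Single genes against other T cells turned their direction only with the cleaner references, where the part of other-class transcripts was not tested. These were Lgals3 (0.24 in the stricter sets), Trbc2 (-0.57 with at least 2 Cd3 UMIs and -0.76 in the stricter sets), Tcf7 (-0.28 and -0.47), Il2rb (-0.13 and -0.33) and Rgs2 (-0.00423 with at least 2 Cd3 UMIs). Of 803 values of 81 called genes, 699 kept their direction and call and 96 lost the call. Settings in which a gene could not be tested are not among the 803. In the stricter sets 27 of the 81 kept both, 18 lost the call and 4 turned their direction, and the rest could not be tested. Of 367 values of 35 called genes against cytotoxic lymphocytes, 310 kept both and 57 lost the call, 31 of them without OSA replicate 2. With 62 gated cells in OSA, genes at a few UMIs, the receptor segments among them, could not be tested.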
